A study of Homo sapiens with 6 samples.

Results

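Peaks of R-loop signal were examined over 10 genes of the hypoxia response in IMR90 human embryonic lung fibroblasts that grew at 2% oxygen. The genes were listed by name, HIF1A, EGLN3, VEGFA, ADM, SLC2A1, PGK1, LDHA, PDK1, BNIP3 and NDRG1, and all 10 were found among the 19821 protein-coding genes used from a GRCh38 RefSeq table. The states were senescent (ectopic Ras, called oncogenic in the treatment protocol), quiescent (starvation) and proliferating (control vector), all of genotype WT and all under 2% oxygen. The growth protocol names 10% serum for every sample; the Ras construct, the means of starvation and the number of cultures are not stated. No state at another oxygen level is in the series, so the values compare growth states and not oxygen levels. The assay was MapR, which brings micrococcal nuclease to RNA-DNA hybrids through an inactive RNase H (the RH-MNase enzyme) and sequences the fragments it frees. Of 6 libraries, the 3 RH-MNase libraries gave the peak lists used here, 1 per state, and the GST-MNase background libraries are not analysed here. With 1 library per state there are no replicates, and every difference below is between single libraries with no test across cells.

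An R-loop is an RNA strand paired with its DNA template while the other DNA strand lies free, and it often forms over the starts of transcribed genes. Cells answer low oxygen through hypoxia-inducible factor (HIF), whose alpha subunits are marked for destruction by oxygen-dependent prolyl hydroxylases. When oxygen is short the alpha subunit persists, pairs with ARNT and binds DNA elements with the core ACGTG or GCGTG near genes of glucose use, vessel growth and mitochondrial turnover.

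The senescent list held 85564 peaks over 54.1 Mb, the quiescent list 9736 peaks over 4.12 Mb and the proliferating list 101802 peaks over 85.4 Mb. Read depth is unknown, so these totals cannot be set against it. A locus here runs from 1000 bp before to 1000 bp past the gene, and its covered percent is the share of its bases under peaks. In such bulk lists fewer cells with an R-loop and less R-loop signal per cell cannot be told apart. Peaks lay over 8 of 8 fibroblast genes checked in senescent, 4 of 8 in quiescent and 8 of 8 in proliferating cells. For 7 genes of other cell types the numbers were 5, 0 and 5, with a median covered percent of 2.00% in senescent and 1.53% in proliferating cells, against 20.2% and 34.0% for the fibroblast genes. Peaks report R-loop signal and not expression, so this is no check of identity.

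The 250 bases before the annotated start are shown for 6 of the genes, to set those with a senescent peak there beside some without one. In SLC2A1 these bases lay wholly under a peak in all 3 states, and in EGLN3 under a senescent and a proliferating peak. In HIF1A, LDHA and BNIP3 they lay wholly under a proliferating peak with none in the other states, and in PGK1 9.6% of them did so. The bases before the first start of PDK1 had the same pattern as those of HIF1A, and those of ADM were 16% covered in senescent, 0% in quiescent and 100% in proliferating cells; neither is printed. The sequences are RefSeq promoters of GRCh38, written in the direction of transcription and ending 1 base before the start, with capitals for ACGTG or GCGTG on either strand (read as CACGT or CACGC on the other strand; matches may overlap).
SLC2A1 (chr1:42958869-42959118, minus strand): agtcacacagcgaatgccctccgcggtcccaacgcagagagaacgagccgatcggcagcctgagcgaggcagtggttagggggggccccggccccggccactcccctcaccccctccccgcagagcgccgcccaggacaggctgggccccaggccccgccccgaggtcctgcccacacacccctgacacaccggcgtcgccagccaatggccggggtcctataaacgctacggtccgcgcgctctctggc
EGLN3 (chr14:33951075-33951324, minus strand): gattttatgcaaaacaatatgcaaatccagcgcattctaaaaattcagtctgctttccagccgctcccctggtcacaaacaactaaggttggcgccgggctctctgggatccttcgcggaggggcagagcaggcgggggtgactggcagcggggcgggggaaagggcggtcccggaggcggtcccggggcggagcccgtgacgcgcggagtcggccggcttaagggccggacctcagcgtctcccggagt
HIF1A (chr14:61695263-61695512, plus strand): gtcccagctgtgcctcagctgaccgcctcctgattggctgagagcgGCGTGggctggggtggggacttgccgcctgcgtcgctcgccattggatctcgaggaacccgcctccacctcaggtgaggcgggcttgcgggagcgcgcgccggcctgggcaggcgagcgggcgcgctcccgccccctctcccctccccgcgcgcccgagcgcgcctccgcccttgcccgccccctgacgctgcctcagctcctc
LDHA (chr11:18394313-18394562, plus strand): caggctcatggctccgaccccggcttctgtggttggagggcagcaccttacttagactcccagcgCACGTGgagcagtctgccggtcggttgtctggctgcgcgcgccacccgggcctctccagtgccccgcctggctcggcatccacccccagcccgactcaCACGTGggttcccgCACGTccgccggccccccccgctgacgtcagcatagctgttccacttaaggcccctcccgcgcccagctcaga
BNIP3 (chr10:131981924-131982173, minus strand): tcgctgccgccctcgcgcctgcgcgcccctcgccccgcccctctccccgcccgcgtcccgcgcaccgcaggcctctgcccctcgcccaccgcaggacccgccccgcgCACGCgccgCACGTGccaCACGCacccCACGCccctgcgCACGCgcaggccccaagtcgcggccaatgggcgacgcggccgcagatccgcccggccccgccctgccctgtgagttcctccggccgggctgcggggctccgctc
PGK1 (chrX:78103998-78104247, plus strand): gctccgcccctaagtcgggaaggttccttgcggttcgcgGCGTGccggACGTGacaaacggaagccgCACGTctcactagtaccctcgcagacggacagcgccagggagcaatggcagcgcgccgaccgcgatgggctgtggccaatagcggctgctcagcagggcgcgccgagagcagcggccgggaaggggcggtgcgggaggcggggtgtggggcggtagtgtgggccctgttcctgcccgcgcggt
PGK1 had 3 matches, at positions -211, -202 and -183 from its start. LDHA had 5 and BNIP3 6, counted on both strands, where CACGTG counts on each. HIF1A had 1, and SLC2A1 and EGLN3 had none in this window. Among promoters not printed, ADM had 1 match, with 16% of its bases under a senescent peak. The first start of PDK1 had 0 matches and 0% senescent cover, and its second start 2 matches and 35.2%. Second starts of LDHA and HIF1A had 1 and 0 matches, both with 0% senescent cover. No relation between matches and peaks was tested. Of 22156 protein-coding promoters 49.3% held at least 1 match, so a match is common, and it is a description of the letters and not of binding.

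Every one of the 10 genes had a smaller share of its locus under peaks in senescent and in quiescent cells than in proliferating cells. Over all protein-coding genes the covered percent was lower in senescent than in proliferating cells for 72.5% and higher for 13.2%. It was lower in quiescent than in proliferating cells for 83.4%, and lower in quiescent than in senescent cells for 79.8%, which held for 9 of the 10 genes. The median over the 10 genes was 7.34% in senescent, 0% in quiescent and 17.2% in proliferating cells, against 3.20%, 0% and 5.90% over all protein-coding genes. The loci were of ordinary length, with a median of 27948 bp beside 26482 bp over all genes. Covered percent was at least 2-fold lower in senescent than in proliferating cells in 5 of the 10 genes (ADM, LDHA, PDK1, BNIP3 and PGK1), against 30.7% of all genes. None of the 10 was at least 2-fold higher in senescent cells, as 4.35% of all genes were. All 10 were at least 2-fold lower in quiescent than in proliferating cells, beside 82.7% of all genes. Only a gene with a proliferating peak can be lower, and all 10 had one, as did 16535 of the 19821 genes. Of those 16535 genes, 16534 were lower in quiescent cells, 16384 of them at least 2-fold. Lower in senescent cells were 14370, of which 6084 at least 2-fold. A low value in quiescent cells is thus no trait of these 10 genes. Where both states had peaks, the ratio of senescent to proliferating cover had a median of 0.518 over 9 genes and of 0.622 over 15448 genes. A peak lay over the locus of 9 of the 10 genes in senescent cells, 4 in quiescent cells and 10 in proliferating cells, beside 80.3%, 34.4% and 83.4% of all genes.

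**Figure D1:**
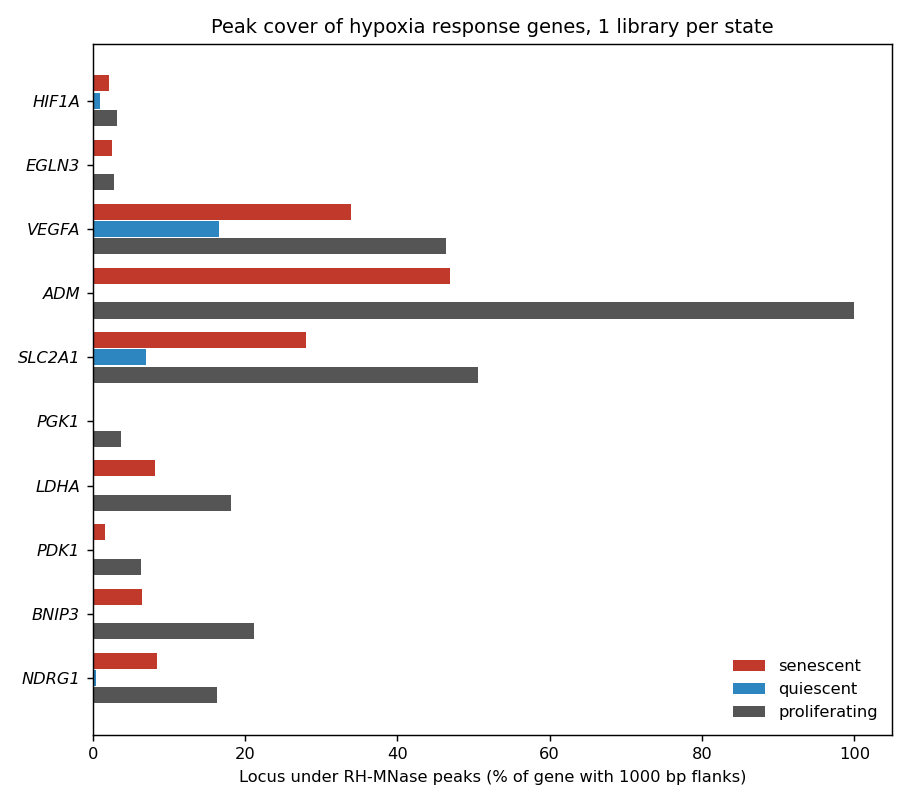
Percent of each locus (gene with 1000 bp flanks) under RH-MNase peaks, with 1 bar per state from 1 library each. The proliferating bar is the longest in all 10 genes, ADM reaches 100% there, and 6 genes have no quiescent bar.

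Shortened lists gave other counts. The shares of all genes given with them include genes with no peak in the proliferating list, which cannot be lower in another state. When the lowest-scoring proliferating peaks were dropped until that list covered as much as the senescent one, 8 of the 10 genes had a lower covered percent in senescent than in proliferating cells, beside 53% of all genes. EGLN3 was then higher in senescent cells, as were 30% of all genes, with 2.53% against no peak in proliferating cells, and PGK1 had no peak in either list. The gap, senescent minus proliferating, was then -0.21 points in NDRG1, against -7.86 with the whole lists, -4.47 points in VEGFA, against -12.6, and -10.5 points in SLC2A1, against -22.6. Dropping peaks by score changes which peaks are compared as well as the covered length, and the parts of these were not tested. With the 9736 top-scoring peaks of each list, 6 of the 10 were lower in senescent than in proliferating cells (33.9% of all genes), and PDK1 was higher (12.3%). The same 6 were lower in quiescent than in proliferating cells (36.6%). Between quiescent and senescent cells 3 were then lower (26.7%) and 2, VEGFA and SLC2A1, were higher in quiescent cells (18.2%).

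Among the regulators, HIF1A, which encodes the oxygen-regulated alpha subunit of HIF (chromosome 14, 61695513 to 61748258), had 2.18% of its locus covered in senescent, 0.999% in quiescent and 3.24% in proliferating cells. All of this cover sat at the start. The proliferating peak was a single block of 1776 bp from position -718 to 1057, counted in bp from the start with negative values before it, and its score of 115, given like all scores by the authors, was above that of 99.9% of the peaks in its list. Senescent cells had a pair of peaks within nearly the same span, from -720 to -332 (score 20) and from 12 to 816 (score 36), with the start uncovered between them. The quiescent peak was 547 bp wide with a score of 15, higher than 18.8% of its list. The antisense gene HIF1A-AS1 overlaps each of these peaks, and the lists carry no strand, so signal from either gene cannot be told apart.

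EGLN3 encodes a prolyl hydroxylase that marks HIF alpha subunits and is itself induced by HIF. Its locus (chromosome 14, 33924227 to 33951074) was 2.53% covered in senescent, 0% in quiescent and 2.76% in proliferating cells, the closest pair of senescent and proliferating values among the 10 genes. Both states had a peak across the start, of 534 bp in senescent and 795 bp in proliferating cells. Within their own lists these peaks stood at different places, the senescent one (score 27) above 81.0% of peaks and the proliferating one (score 17) above 29.3%. Senescent cells had a further peak of 195 bp inside the gene that met no proliferating peak. The nearest quiescent peak lay 545790 bp away.

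Of the secreted factors, VEGFA, the main vascular growth factor of the hypoxia response (chromosome 6, 43770211 to 43786487), was 33.9% covered in senescent, 16.5% in quiescent and 46.4% in proliferating cells. The quiescent value exceeded that of 99.3% of protein-coding genes. In proliferating cells a peak of 7744 bp (score 66) ran from -2175 to 5568 bp around the lower-coordinate end of the gene. Senescent cells had 3 peaks of 3014, 2733 and 412 bp under that block, which covered 79.5% of it, and quiescent cells had 5, which covered 43.5%. The strand of VEGFA was not in the promoter table used here, so its start was taken as either annotated end.

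ADM encodes adrenomedullin, a vasodilator peptide induced by low oxygen (chromosome 11, 10305073 to 10307397). Its locus was 46.9% covered in senescent, 0% in quiescent and 100% in proliferating cells. A single proliferating peak of 8277 bp (score 50) spanned the whole gene and both flanks. Senescent cells had 3 peaks under it, of 1247 bp before the start, 268 bp just after the start and 2424 bp past the gene end. The first of these, from 10303616 to 10304862, lies mostly inside the minus-strand neighbour SBF2 and crosses its annotated start at 10304841. The last reaches the lncRNA gene CAND1.11, and the peak of 268 bp is the senescent cover of ADM itself. That peak had a score of 11, above only 0.996% of the senescent list. The proliferating peak overlaps SBF2 and CAND1.11 too, so signal from these genes cannot be told apart. Without flanks the senescent value was 88.5 points below the proliferating one, against 53.1 points with them.

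Glucose uptake and glycolysis were represented by SLC2A1, PGK1 and LDHA. SLC2A1, the GLUT1 glucose transporter gene (chromosome 1, 42925353 to 42958868), was 28.0% covered in senescent, 7.01% in quiescent and 50.6% in proliferating cells, with 10, 2 and 12 peaks. Peaks were spread over its length, and each of the 10 senescent peaks overlapped a proliferating one. The start lay under a peak in every state, of 2171 bp in senescent, 2326 bp in quiescent and 4253 bp in proliferating cells, and the divergent lncRNA gene SLC2A1-DT shares all 3. Just past the other end of the gene, a senescent peak from 34223 to 34765 bp after the start (score 32, above 90.6% of its list) had counterparts in both other states. Its quiescent form had a score of 37, above 93.6% of that list, and its proliferating form a score of 71, above 97.9%.

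PGK1, which encodes the ATP-forming glycolytic enzyme phosphoglycerate kinase (chromosome X, 78104248 to 78129295), had no senescent and no quiescent peak and 3.70% of its locus covered in proliferating cells. Its only proliferating peak was 1001 bp wide, began at position -24 and had a score of 23, above 52.7% of its list. The nearest senescent peak lay 11490 bp from the gene and the nearest quiescent peak 1931036 bp away.

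LDHA encodes the subunit of lactate dehydrogenase that regenerates NAD during glycolysis (chromosome 11, 18394563 to 18408425). It was 8.19% covered in senescent, 0% in quiescent and 18.2% in proliferating cells. The proliferating start peak of 2570 bp had a score of 72, above 98.0% of its list, and began at position -622. The single senescent peak, of 1299 bp, began 220 bp after the start, and its score of 12 was above 5.30% of its list. The promoter sequence shown above thus lay wholly under the proliferating peak and outside the senescent one.

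PDK1 and BNIP3 act on mitochondria. PDK1, a kinase that keeps pyruvate out of the citric acid cycle, has the longest locus of the 10 at 170940 bp (chromosome 2, 172555373 to 172724312). It was 1.62% covered in senescent, 0% in quiescent and 6.38% in proliferating cells, with 7, 0 and 12 peaks, so the senescent value was 0.254 of the proliferating one. The start peak was 693 bp wide in senescent cells (score 13) and 2743 bp in proliferating cells (score 33). The antisense gene PDK1-AS1 overlaps both. A senescent peak of 324 bp inside the gene, 88096 bp after the start, had a score of 35, above 93.9% of its list, and lay wholly under the proliferating peak there.

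BNIP3 encodes an outer-membrane receptor for mitophagy (chromosome 10, 131967684 to 131981923). Its locus was 6.50% covered in senescent, 0% in quiescent and 21.2% in proliferating cells. The proliferating start peak of 2964 bp had a score of 39, above 80.9% of its list. Under it senescent cells had peaks of 335 bp (score 16) and 720 bp (score 11), which together covered 35.6% of it. Both began after the start, the nearer by 43 bp, and the 6 motif matches printed for BNIP3 lay outside them.

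NDRG1, a stress gene that hypoxia induces in many cell types (chromosome 8, 133237175 to 133297252), was 8.46% covered in senescent, 0.364% in quiescent and 16.3% in proliferating cells. Peaks numbered 7, 1 and 10. At the higher-coordinate end a proliferating peak of 4179 bp (score 58) held 3 senescent peaks of 432, 1948 and 781 bp over 75.6% of its length, and the quiescent peak of 226 bp (score 29) lay in the same block. Its strand was not in the promoter table either.

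**Figure D2:**
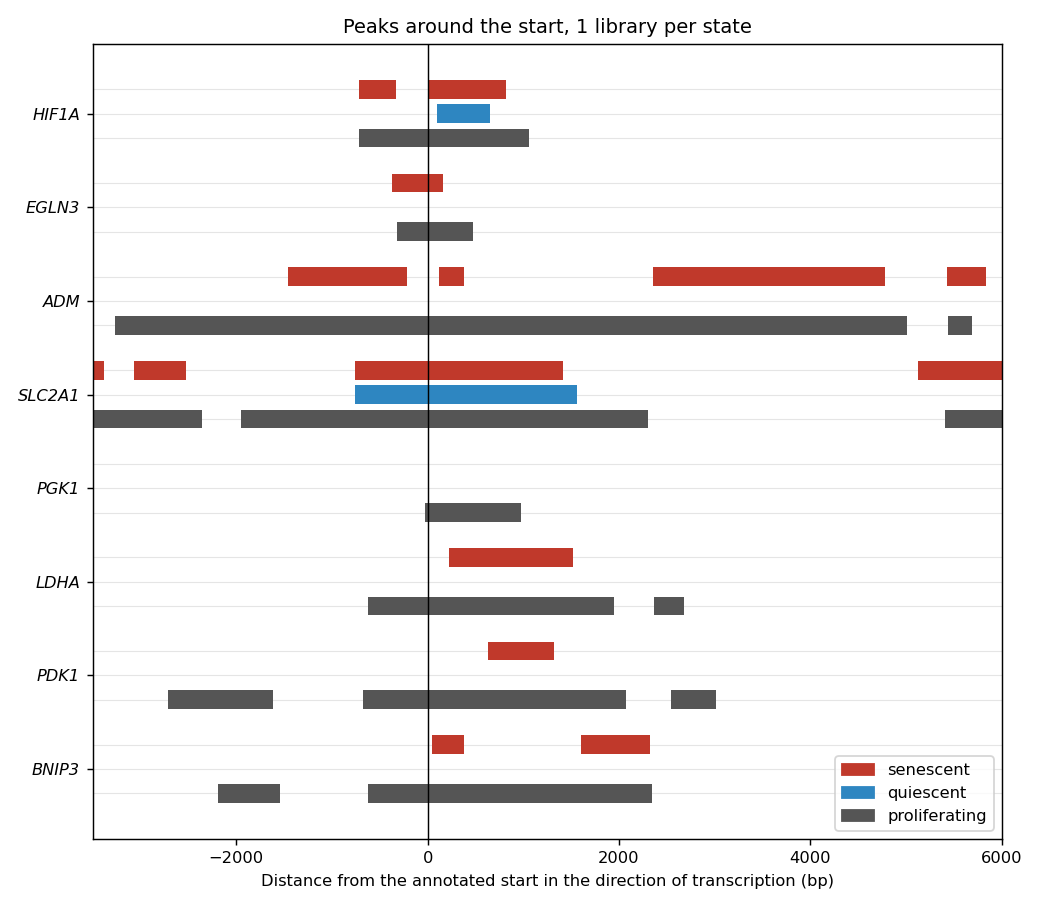
Peaks from 3500 bp before to 6000 bp after the annotated start of the 8 genes with a known strand, with 1 lane per state and the start at 0. Proliferating peaks cross the start in all 8 genes, senescent peaks cross it in EGLN3 and SLC2A1, and the quiescent peak of SLC2A1 crosses it too.

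The annotated start base of the 8 genes with a known strand was under a peak in 2 genes in senescent cells, 1 in quiescent cells and 8 in proliferating cells. As shares these are 25% (exact binomial 95% interval 3.19 to 65.1%), 12.5% (0.316 to 52.7%) and 100% (63.1 to 100%), and the intervals cover counting error only. Over the 15813 protein-coding genes with a known strand the start base was under a peak in 39.4% in senescent, 10.2% in quiescent and 63.7% in proliferating cells. Of the genes with a proliferating peak on the start base, 2 of these 8 had the base under a senescent peak too, beside 59.2% of 10066 genes, a value inside the interval for 2 of 8. In the wider pathway listed below it was 27 of 44 genes (61.4%). Senescent peaks did lie within 1000 bp of the start in 7 of the 8. Among genes with such a peak and a proliferating one on the start base, the start base was under the senescent peak in 2 of 7, beside 64.7% of 9220 genes. In LDHA, PDK1 and BNIP3 they began after the start, and the 1000 bp before it had no senescent peak, while proliferating peaks covered 62.2%, 67.3% and 61.9% of those bases. In HIF1A and ADM senescent peaks lay on both sides with the start between them. RefSeq gives a second start for PDK1, at 172556090, and that base was under the senescent peak; the second start of LDHA was not, and that of HIF1A was under no peak in any state.

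**Figure D3:**
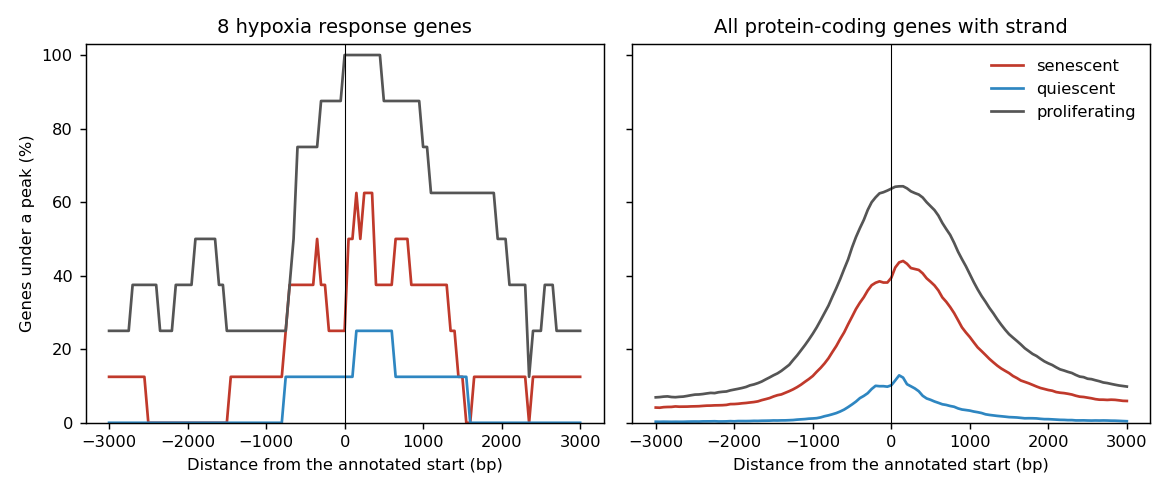
Percent of genes under a peak at each distance from the annotated start, from 3000 bp before to 3000 bp after it, for 8 hypoxia response genes (left, where 1 gene is 12.5%) and 15813 protein-coding genes (right). At the start base the 8 genes stand at 25% in senescent, 12.5% in quiescent and 100% in proliferating cells, and all genes at 39.4%, 10.2% and 63.7%.

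A peak within 1000 bp of the start, or of either end for VEGFA and NDRG1, was present in 9 of the 10 genes in senescent, 4 in quiescent and 10 in proliferating cells. Over all protein-coding genes that share was 67%, 26.4% and 73.4%. Start peaks counted in this way include peaks at either end of VEGFA and NDRG1, so some may lie at the gene end. For the 10 genes they had a median width of 781 bp in senescent cells (15 peaks), 547 bp in quiescent cells (5 peaks) and 2656.5 bp in proliferating cells (12 peaks). For all peaks at protein-coding starts the medians were 783, 370 and 1493.5 bp. In the proliferating list 5 of the 12 start peaks (41.7%) were above 90% of their list by score, where 31.4% of all start peaks are. In the senescent list it was 2 of 15 (13.3%), beside 17.4%.

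Broad proliferating peaks often held several senescent ones. The 10 genes had 10 proliferating peaks of at least 2000 bp, each overlapped by a senescent peak, and 5 of them by 2 or more. Among all 8192 proliferating peaks of that width 97.3% had a senescent partner and 46.8% had 2 or more, so the share in these genes was near the background. Senescent peaks covered a median of 56.5% of the 10 broad peaks and 58.5% of all. A quiescent peak lay under 3 of the 10, in VEGFA, SLC2A1 and NDRG1, and under 49.3% of all.

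With 1 shared bp as the rule, 38 of 40 senescent peaks of these genes overlapped a proliferating peak, which is 95% (exact binomial 95% interval 83.1 to 99.4%), beside 65.7% of all senescent peaks. Where both peaks had to share 50% of their length, the share was 22.5%, beside 30.4% of all senescent peaks, and with equal numbers of top-scoring peaks it was 60%, beside 42.8%. The exceptions were single peaks inside EGLN3 and PDK1, named after their values were seen. In the other direction 27 of 48 proliferating peaks, 56.3% (41.2 to 70.5%), overlapped a senescent peak, beside 49.9% of all. All 9 quiescent peaks overlapped a senescent and a proliferating peak, beside 94.1% and 99.4% of the whole quiescent list. Conversely 7 of 40 senescent peaks (17.5%) and 5 of 48 proliferating peaks (10.4%) overlapped a quiescent peak, beside 9.93% and 8.25% of those lists. Peaks of 1 gene are not independent of each other, and wide proliferating peaks leave more room for an overlap. Shares of the whole lists count every peak, also those away from protein-coding genes, while each of the 10 genes had a proliferating peak.

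**Figure D4:**
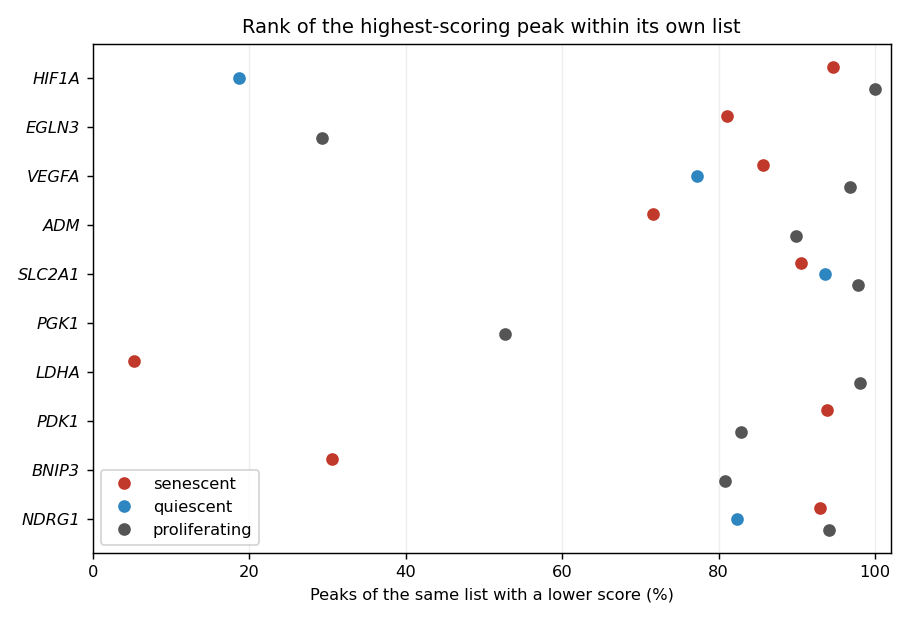
Percent of peaks in the same list with a lower score than the highest-scoring peak of each gene, with 1 point per state and none where the gene has no peak. LDHA stands at 5.30% in senescent and 98.0% in proliferating cells, and EGLN3 at 81.0% and 29.3%, each within its own list.

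The highest score over each locus was placed within its own list, because scores of different lists have no stated common scale. Senescent peaks stood above 90% of their list in HIF1A (94.7%), PDK1 (93.9%), NDRG1 (92.9%) and SLC2A1 (90.6%), 4 of the 10 genes, beside 25% of all protein-coding genes. Proliferating peaks did so in HIF1A (99.9%), LDHA (98.0%), SLC2A1 (97.9%), VEGFA (96.8%) and NDRG1 (94.1%), 5 of the 10, beside 36.6% of all genes. SLC2A1 alone among the 10 genes did so in quiescent cells, with 93.6%, beside 4.11% of all genes. A locus with more peaks has more chances to hold such a peak.

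The wider pathway was described with 59 further genes found in the table. Covered percent was lower in senescent than in proliferating cells in 56 of them (94.9%, beside 72.5% of all protein-coding genes) and higher in 2 (3.39%, beside 13.2%), and their medians were 6.93% in senescent, 0.156% in quiescent and 13.2% in proliferating cells. The counts by role below stand against the same 72.5%. Only genes with a proliferating peak can be lower, which 57 of the 59 had. Of all protein-coding genes 16535 had such a peak, and 14370 of those were lower in senescent cells, a larger share than 72.5%. A quiescent peak was present in 31 of the 59 (52.5%, beside 34.4% of all genes). The values higher in senescent cells were those of DDIT4, a stress-induced inhibitor of mTORC1, with 86.4% in senescent, 13.5% in quiescent and 66.2% in proliferating cells, and of EPO, the erythropoietin gene, with 5.77% in senescent cells and no peak in the other states. The EPO value came from 1 peak that covered 302 bp of the locus. Its score of 11 was above only 0.996% of the senescent list, so it lay near the lowest score called.

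The 13 genes of HIF subunits and oxygen sensing were all lower in senescent than in proliferating cells. The largest gap was that of CITED2, which competes with HIF for a coactivator, with 31.6% in senescent, 10.2% in quiescent and 76.4% in proliferating cells. EGLN2, another prolyl hydroxylase gene, had 43.5%, 3.11% and 58.7% in the same order of states. Of 7 secreted and vascular genes 5 were lower, and STC2, a secreted glycoprotein gene, had 21.1% in senescent, 1.63% in quiescent and 52.1% in proliferating cells.

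All 17 genes of glucose uptake and glycolysis were lower in senescent than in proliferating cells, and 12 had a quiescent peak. ENO1, the enolase gene, had the widest gap, with 9.90% in senescent, 0% in quiescent and 46.2% in proliferating cells. GAPDH had the highest quiescent value of the 59, with 77.4% in senescent, 23.6% in quiescent and 88.9% in proliferating cells. TPI1, the triose phosphate isomerase gene, had 55.6%, 12.8% and 89.1% in these states, and SLC16A3, a lactate exporter gene, 49.4%, 13.2% and 66.9%. ALDOA, an aldolase gene, had 37.0%, 4.86% and 58.1%, and PGAM1, a phosphoglycerate mutase gene, 10.6%, 3.52% and 33.7%.

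All 8 genes of mitochondria and pH were lower in senescent cells, with LONP1, a mitochondrial protease gene, at 16.1% in senescent, 0% in quiescent and 28.3% in proliferating cells. Of 8 stress and feedback genes 7 were lower, among them BHLHE40, a transcriptional repressor gene, with 48.0% in senescent, 16.4% in quiescent and 67.9% in proliferating cells. The 6 genes of matrix modification were all lower. P4HA2, a collagen prolyl hydroxylase gene, had 9.15% in senescent, 1.15% in quiescent and 18.5% in proliferating cells, and LOX, which crosslinks collagen, 12.0%, 3.84% and 15.9%.

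Nearest to the 3 medians of the 10 genes, by Euclidean distance over the 3 covered percents, were P4HA2 at 2.46 points, KDM4B at 3.09 points and EPAS1 at 3.53 points. KDM4B, a histone demethylase gene, had 8.69% in senescent, 0.433% in quiescent and 14.5% in proliferating cells. EPAS1, which encodes the other main HIF alpha subunit, had 5.95%, 1.14% and 20.3%.

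**Figure D5:**
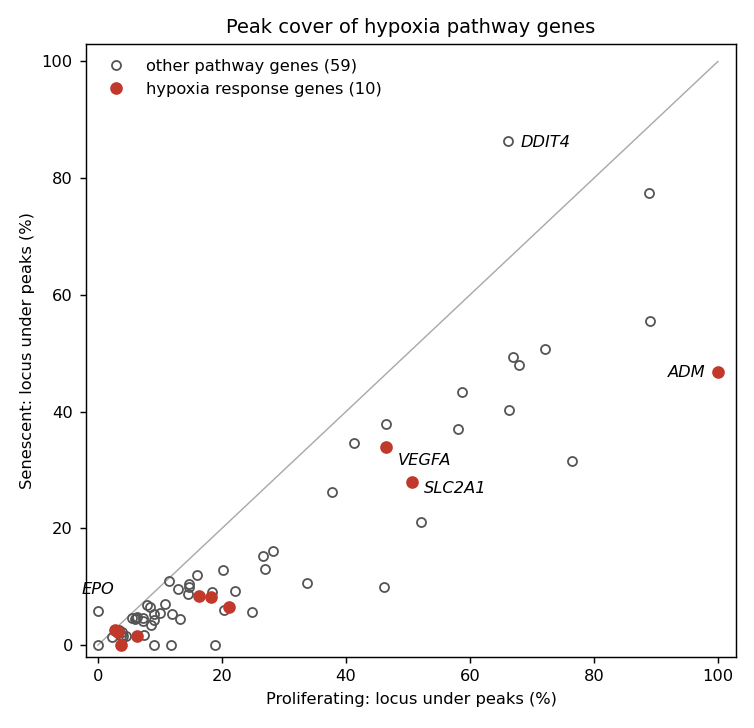
Covered percent of the locus in senescent cells (vertical) against proliferating cells (horizontal) for 10 hypoxia response genes (filled) and 59 other pathway genes (open), with 1 library per state and the line of equal values. All 10 filled points lie below the line, and DDIT4 and EPO are the open points above it.

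Base composition of the 300 bases around the start, from 250 before to 50 after it, varied widely among the 11 RefSeq promoters of 8 genes. The GC content was 80.7% for BNIP3 and 36.3% for the first start of PDK1, whose second start had 77%, beside a median of 62.3% over all protein-coding promoters. The GC skew, the excess of G over C on the coding strand divided by their sum, was 0.10 for PGK1, 0.08 for EGLN3, -0.21 for the first start of LDHA and -0.28 for BNIP3, with a median of 0.02 over all promoters. It was -0.17 for ADM, -0.11 for SLC2A1 and -0.07 for the second start of LDHA. The first and second starts had -0.09 and -0.07 in HIF1A, and 0.03 and -0.03 in PDK1. Most of the 11 values were thus negative. Across so few genes these values are a description, and no relation to the peaks was tested.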

How the data were processed

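The build GRCh38 and the programs MACS2 2.2.7.1, Bowtie2 2.4.5 and FastQC 0.11.9 are named per the submitters' processing notes. Which library served as control in peak calling, and all settings, were not given in the sources. The authors deposited 1 peak list per state with positions and a score, in whole numbers from 10 up and on an unstated scale. The score ranked peaks within its own list. Coordinates were turned to 1-based. Of 59792 RefSeq entries 58419 on the main sequences of chromosomes 1 to 22 and X were used, 19821 of them protein-coding. Strand and start came from the RefSeq promoter table (15813 protein-coding genes). Peaks overlapped when they shared 1 bp. Intervals are exact binomial at 95%. The genes and lists were chosen with earlier results of these data known. The 60 pathway genes written down gave 59 in the table. Named from them were, per role, the largest gap in each direction between senescent and proliferating cells, the 10 highest quiescent values and the 3 genes nearest to the medians. Cover, counting and overlap functions were tested on simulated data. Python 3.11.15 with pandas 2.3.3, numpy 2.4.6, scipy 1.17.1 and matplotlib 3.10.9 were used. Alternatives were other flanks, start windows and overlaps, peaks at or above the median score, equal numbers of peaks and equal covered length.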

Additional observations from a re-analysis of the deposited data

How the results depend on the processing

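The 8 results on locus counts, lower counts and medians stayed within 1.5 times of their values without flanks and with flanks of 5000 bp, as did the start counts with windows of 500 and 3000 bp. With equal numbers of top-scoring peaks (9736 per list) a peak lay over 4 genes in senescent and 6 in proliferating cells (28.9% and 36.9% of all genes) and at the start of 2 and 6 (17.9% and 28.8%). In that setting 6 genes were lower in senescent than in proliferating cells (33.9% of all genes), 6 in quiescent than in proliferating cells (36.6%) and 3 in quiescent than in senescent cells (26.7%), the medians were 0% in senescent and 4.96% in proliferating cells (0% and 0% over all genes), PDK1 turned to 0.52 points higher in senescent cells, and the shared peaks were 60% of senescent and 33.3% of proliferating ones (42.8% and 40.4% of the whole lists). When peaks below their list's median score were left out, the senescent median was 2.35% (1.59% over all genes), the shared peaks were 69.6% and 35.7% (64.6% and 49.9%), and EGLN3 turned to 2.53 points higher in senescent cells. At equal covered length EGLN3 turned likewise, by 2.53 points, and the shared peaks were 75% and 90.9% (42.3% and 74.8%). Where both peaks had to share 50% of their length, 22.5% of senescent and 18.8% of proliferating peaks were shared (30.4% and 25.5%). These settings use fewer peaks or a stricter overlap by construction; beyond that the cause was not tested. No paired analysis was possible because each state has 1 library. Depth is unknown, so a locus without a peak is one where none was called.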

Other observations

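Start bases of the other pathway genes differed by role, in groups looked at after their values were seen and with no test. All 6 genes of matrix modification had the annotated start base under a senescent peak, and all 6 had it under a proliferating peak. For HIF subunits and oxygen sensing the numbers were 4 in senescent and 9 in proliferating cells of 10 genes with a known strand, and for glucose uptake and glycolysis 8 and 14 of 16. Across the 51 such genes of the wider pathway the start base was under a peak in 28 genes in senescent, 4 in quiescent and 44 in proliferating cells, which is 54.9%, 7.84% and 86.3%. Over all protein-coding genes with a known strand the shares were 39.4%, 10.2% and 63.7%, and the counts by role above stand against these.

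A senescent peak lay over 55 of the 59 further pathway genes (93.2%), beside 80.3% of all protein-coding genes, and 4 had none. VHL, whose product marks HIF alpha subunits for destruction, had 0% in senescent and 9.05% in proliferating cells, SLC2A3, another glucose transporter gene, 0% and 18.9%, and COX4I2, a cytochrome oxidase isoform gene, 0% and 11.8%. LEP, the leptin gene, had no peak in any state. These genes were picked after their values were seen.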
